A study of Mus musculus with 4 samples.

Results

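The genes described here copy DNA or supply its deoxynucleotide building blocks. They are 40 genes named by symbol for their roles. The list was drawn up with earlier results of these data known, so it is not independent of them. All 40 were found among the 17574 genes of the complete libraries. Bulk RNA was sequenced from tumours that SCC7 cells, a murine head and neck squamous carcinoma line, formed after subcutaneous injection into C3H/HeN mice, with the genotype given as WT. Mice of the anti-CD71 group (2 libraries) received on days 6 and 9 an antibody to CD71, the receptor that brings transferrin-bound iron into cells. For the control group (2 libraries) the labels give no agent, and the time point of both groups is day 10. Each library is labelled as tumour tissue, so it holds RNA of SCC7 cells together with that of host cells, and fewer cells of a type cannot be told apart from less RNA per cell. The labels do not say whether the replicates of a group came from separate mice, so p-values measure only the spread between these libraries.

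DNA replication starts when the origin recognition complex, with Cdc6 and Cdt1, loads the MCM helicase onto DNA. Cdc45 and the GINS complex turn that helicase on, polymerase alpha with its primase starts each strand, and polymerases delta and epsilon, held to DNA by the sliding clamp PCNA, extend it. Ribonucleotide reductase makes the deoxynucleotides, and its small subunit, encoded by Rrm2, holds the iron centre on which the enzyme depends. Iron-sulfur clusters are found in the proteins of Pold1, Pole and Prim2, so the list includes genes whose products need the metal that CD71 brings into cells. In growing tumours such transcripts are abundant in cycling cells, and many are targets of E2F transcription factors.

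Values are TPM, a transcript abundance corrected for length and scaled to a fixed total in each library, so levels can be compared between genes. Read depth is unknown for these values. The complete libraries list 59881 transcripts each, whereas anti-CD71 replicate 1 is partial, listing 13586 of them (22.69%). A transcript beyond its end is missing there, not 0. Of the 40 genes, 9 had at least 90% of their TPM in transcripts listed for all 4 libraries, 9 had some TPM listed (at most 14.59%), and 22 had no listed transcript. The 4-library comparison therefore covers 9 members, and the 3-library comparison sets anti-CD71 replicate 2 alone against both controls for all 40. With 3 libraries the test takes the spread from the controls and applies it to the lone treated library. The anti-CD71 libraries differed more from each other than the controls did (SD of log2 differences 0.294 and 0.222 over the 1564 genes tested in all 4), which goes against that assumption.

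Replication transcripts stood at about the control level or slightly above it in anti-CD71 replicate 2, the one treated library that covers all 40. In anti-CD71 replicate 1, where 9 could be compared, the median difference from the control mean was 0.06. No member was called lower in either comparison, which does not show that levels were kept. Dscc1 was the one member called higher over 4 libraries (1 of 9), where 0.895% of all genes were called higher, 3.45% lower and 4.35% in either direction. Over 3 libraries 33 of the 40 members lay above both controls in anti-CD71 replicate 2, 5 lay between the controls and 2 lay below both, where 39.5% of all genes lay above both and 42.5% below both. None of the 40 passed the test over all genes in that comparison, in which limma called 0.476% of all genes higher, 2.39% lower and 2.86% in either direction. Their median difference was 0.19 on the log2(TPM + 1) scale, against -0.01 over all 11982 genes tested, and single members ran from -0.10 to 0.64, with 38 of 40 within 0.5 of 0 (all genes 90.3%).

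A call here means a limma p below 0.05 after Benjamini-Hochberg adjustment over all genes tested. Without that adjustment 14 of the 40 members (35.0%) had a limma p under 0.05 over 3 libraries, all with a positive difference, against 24.7% of all genes. Over 4 libraries 1 of 9 (11.1%) did, against 26.7% of all genes. The split of all genes called over 4 libraries, 14 higher and 54 lower, became 21 higher and 36 lower after median scaling.

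The controls also differed from each other in these genes. Control replicate 1 exceeded control replicate 2 in 35 of the 40 members, while 45.8% of all genes tested did so. The median log2(TPM + 1) difference between these controls was 0.10 over members and -0.01 over all genes. Set against control replicate 1 alone, anti-CD71 replicate 2 was higher in 34 of 40 members with a median log2 difference of 0.11. Set against control replicate 2 alone, it was higher in 37 of 40 with a median of 0.21. The difference of a member from the control mean was larger than the gap between the controls for 28 of 40 members, a share of 70.0% against 67.3% of all genes. Summed over the 40 members, TPM came to 2984.41 in anti-CD71 replicate 2, against 2687.64 and 2474.44 in the controls. That sum was 1.156 times the control mean, while control replicate 1 was 1.086 times control replicate 2.

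**Figure D1:**
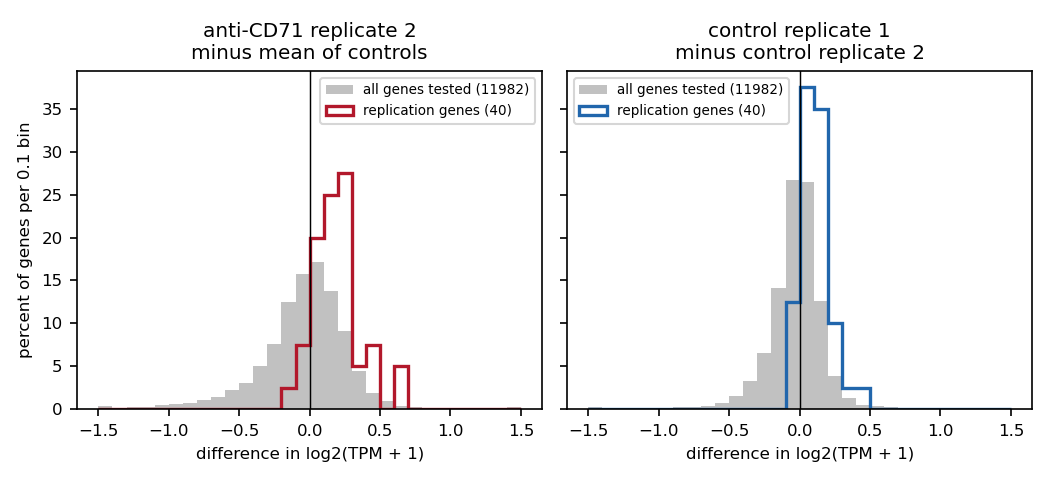
Histograms of the difference in log2(TPM + 1) for all 11982 genes tested (grey) and the 40 replication genes (outline), as percent of genes per bin of width 0.1, with values beyond the axis placed in the end bins. Left, anti-CD71 replicate 2 minus the control mean, where the members' median is 0.19. Right, control replicate 1 minus control replicate 2, where the members' median is 0.10.

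Dscc1 encodes a subunit of an alternative clamp loader that joins Chtf18 and the small Rfc proteins and is tied to sister chromatid cohesion. It lies on chromosome 15 from 55076101 to 55090491 in GRCm38.p6. Dscc1 had 19.99 and 21.9 TPM in anti-CD71 tumours, against 14.62 and 12.85 TPM in the controls. The groups do not overlap, and the lower anti-CD71 library is above the higher control. Its mean was 20.94 ± 1.35 TPM in anti-CD71 tumours and 13.74 ± 1.25 TPM in controls (SD, n = 2 each), and it rose by 0.58 on the log2(TPM + 1) scale (SE 0.10, limma adjusted p = 0.0468 over 4 libraries). Both of its transcripts are listed for every library, and the main one, NM_183089, held 18.05 and 19.99 TPM in anti-CD71 tumours, against 13.14 and 11.13 TPM in controls. The adjusted p by limma lies just inside the threshold, and the call is lost without anti-CD71 replicate 2 (adjusted p = 0.0886), without control replicate 1 (adjusted p = 0.189) and without control replicate 2 (adjusted p = 0.344). Over 3 libraries the difference was 0.64 (SE 0.12) and did not pass (limma adjusted p = 0.0629), the lowest adjusted p of any member there.

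The other 8 members measured in all 4 libraries did not pass the test. Of all 9, both anti-CD71 libraries lay above both controls in 5, which are Dscc1, Mcm2, Cdt1, Rfc3 and Rfc5, and in none did both lie below. Over all 1564 genes those shares were 28.3% above and 31.1% below. Mcm2, a subunit of the replicative helicase, stood at 85.02 and 91.49 TPM in anti-CD71 tumours, against 82.73 and 73.1 TPM in controls (log2 difference 0.18, SE 0.09, limma adjusted p = 0.256). Rfc5, a small subunit that clamp loaders share, stood at 47.74 and 53.1 TPM in anti-CD71 tumours, against 45.28 and 42.97 TPM in controls (log2 difference 0.19, SE 0.08, limma adjusted p = 0.227). The groups did not overlap in either gene, but for Mcm2 the nearest treated and control libraries were closer than the replicates of each group.

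Rfc3, another shared clamp loader subunit, stood at 52.86 and 50.57 TPM in anti-CD71 tumours, against 48.69 and 44.65 TPM in controls. Cdt1, which helps to load the helicase, stood at 45.97 and 47.98 TPM in anti-CD71 tumours, against 44.18 and 44.01 TPM in controls. These groups did not overlap, although neither gene passed (log2 differences of 0.15 and 0.09). Pola1, the catalytic subunit of polymerase alpha, stood at 24.07 and 24.52 TPM in anti-CD71 tumours, against 23.49 and 24.47 TPM in controls. Rfc1, the large subunit of the main clamp loader, stood at 40.25 and 41.65 TPM in anti-CD71 tumours, against 42.04 and 41.05 TPM in controls. For Pola1 and Rfc1 the groups overlapped, and the sign of the Rfc1 difference (-0.02) turned with median scaling (0.02).

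Of the 9, the median difference from the control mean was 0.06 for anti-CD71 replicate 1 and 0.12 for replicate 2, and 7 were higher in replicate 2 than in replicate 1. The median over both was 0.14, against -0.01 over all genes tested. Anti-CD71 replicate 1 lay above both controls in 5 members, between them in 3 and below both in 1, and replicate 2 did so in 7, 1 and 1. The 28.3% and 31.1% of all genes given above need both anti-CD71 libraries on the same side, so they are not the shares for these counts. For replicate 2 alone, over the 11982 genes tested in 3 libraries, 39.5% lay above both controls and 42.5% below.

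**Figure D2:**
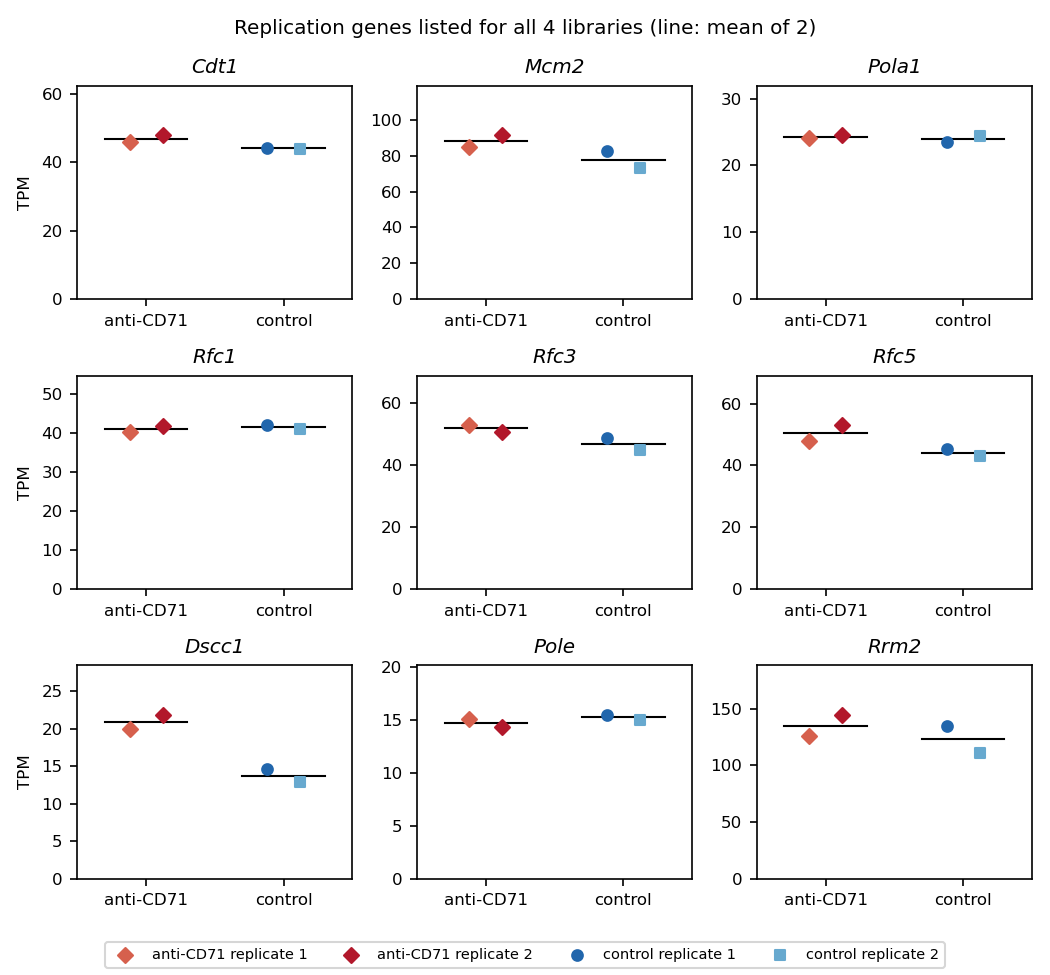
TPM of the 9 replication genes listed for all 4 libraries, with the anti-CD71 libraries at the left and the controls at the right of each panel, points for single libraries and a line at the mean of 2. Dscc1 shows the widest separation, with 19.99 and 21.9 TPM against 14.62 and 12.85 TPM, while Rrm2, Pola1, Pole and Rfc1 overlap.

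Transcripts of the iron-using enzymes were not called lower in anti-CD71 tumours, which does not show that their levels were kept. RNA was measured, not the enzymes or the iron they hold. Pold1 and Prim2 could be compared in anti-CD71 replicate 2 alone. Rrm2, the iron-holding subunit of ribonucleotide reductase, lies on chromosome 12 from 24708254 to 24714146. It stood at 125.42 and 144.65 TPM in anti-CD71 tumours, against 134.68 and 111.22 TPM in controls, so the groups overlapped. Its mean was 135.04 ± 13.6 TPM in anti-CD71 tumours and 122.95 ± 16.59 TPM in controls (SD, n = 2 each), with a log2 difference of 0.14 (SE 0.12, limma adjusted p = 0.498).

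Pole, the catalytic subunit of polymerase epsilon, stood at 15.16 and 14.36 TPM in anti-CD71 tumours, against 15.53 and 15.04 TPM in controls, over the transcript that carries 96.96% of its TPM. Its log2 difference was -0.05 over 4 libraries (SE 0.08, limma adjusted p = 0.756) and -0.10 over 3 libraries (SE 0.10), the lowest of the 40. Pold1, the catalytic subunit of polymerase delta, stood at 26.55 TPM in anti-CD71 replicate 2, against 24.65 and 26.46 TPM in controls. It was nearly equal to control replicate 2. Prim2, the large primase subunit, stood at 46.46 TPM in anti-CD71 replicate 2, between the controls at 46.53 and 40.97 TPM. The log2 difference was 0.05 for Pold1 and 0.09 for Prim2, each under its SE of 0.10 and 0.11. Outside the list, 2 iron enzymes that act nearby were set to be named whatever their values, and they do not stand for all such enzymes. They are Rrm2b, the alternative small reductase subunit, and Dna2, a nuclease and helicase that trims replication intermediates. Over transcripts carrying 94.06% of its TPM, Rrm2b stood at 8.38 and 11.52 TPM in anti-CD71 tumours, against 9.62 and 8.97 TPM in controls (log2 difference 0.07, SE 0.16, limma adjusted p = 0.787). Dna2 stood at 7.75 and 8.98 TPM in anti-CD71 tumours, against 8.07 and 8.58 TPM in controls (log2 difference 0.00, SE 0.11, limma adjusted p = 0.987). In both genes the groups overlapped.

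Promoter sequence is shown because most members lay on the same side of the controls in anti-CD71 replicate 2 and many are known E2F targets. RefSeq promoter windows of GRCm38.p6, from 250 bases before to 50 after the gene start given there, were matched by symbol for 32 of the 40. No window was matched for Dscc1, Gins1, Gins2, Gins4, Mcm4, Pole, Prim2 and Rfc2. Of the 5 windows shown, Orc1 and Pole2 are those of the members with a window whose difference over 3 libraries was highest, Mcm5 and Mcm6 show overlapping E2F matches on opposite strands, and Rrm2 has no match. They are chr4:108579204-108579503 (plus strand) for Orc1, chr12:69228141-69228440 (minus strand) for Pole2, chr8:75109259-75109558 (plus strand) for Mcm5, chr1:128359656-128359955 (minus strand) for Mcm6 and chr12:24708004-24708303 (plus strand) for Rrm2. Capitals mark the E2F motif letters, and each sequence runs 5′ to 3′ on the gene's strand.
Orc1: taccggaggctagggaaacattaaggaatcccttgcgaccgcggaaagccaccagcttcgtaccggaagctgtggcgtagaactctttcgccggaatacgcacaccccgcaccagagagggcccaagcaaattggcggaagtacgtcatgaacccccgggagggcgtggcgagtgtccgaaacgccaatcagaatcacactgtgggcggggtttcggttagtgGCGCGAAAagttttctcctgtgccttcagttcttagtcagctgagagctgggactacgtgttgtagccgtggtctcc
Pole2: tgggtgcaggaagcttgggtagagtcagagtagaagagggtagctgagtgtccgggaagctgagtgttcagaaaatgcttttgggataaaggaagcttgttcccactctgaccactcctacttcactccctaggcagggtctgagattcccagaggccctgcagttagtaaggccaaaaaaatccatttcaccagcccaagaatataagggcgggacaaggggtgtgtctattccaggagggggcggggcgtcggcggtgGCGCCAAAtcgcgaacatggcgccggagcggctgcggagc
Mcm5: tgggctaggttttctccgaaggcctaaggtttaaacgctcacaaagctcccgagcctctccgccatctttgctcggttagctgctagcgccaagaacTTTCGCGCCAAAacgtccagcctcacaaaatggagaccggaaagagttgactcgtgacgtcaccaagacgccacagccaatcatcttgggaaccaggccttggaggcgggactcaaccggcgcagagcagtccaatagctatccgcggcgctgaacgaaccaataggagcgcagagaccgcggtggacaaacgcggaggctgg
Mcm6: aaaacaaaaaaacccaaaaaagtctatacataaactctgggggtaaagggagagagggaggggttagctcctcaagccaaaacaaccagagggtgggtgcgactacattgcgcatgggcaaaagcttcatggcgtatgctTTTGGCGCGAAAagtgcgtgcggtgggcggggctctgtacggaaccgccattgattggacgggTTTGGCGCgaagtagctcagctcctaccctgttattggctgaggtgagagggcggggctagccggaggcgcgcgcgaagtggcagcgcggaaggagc
Rrm2: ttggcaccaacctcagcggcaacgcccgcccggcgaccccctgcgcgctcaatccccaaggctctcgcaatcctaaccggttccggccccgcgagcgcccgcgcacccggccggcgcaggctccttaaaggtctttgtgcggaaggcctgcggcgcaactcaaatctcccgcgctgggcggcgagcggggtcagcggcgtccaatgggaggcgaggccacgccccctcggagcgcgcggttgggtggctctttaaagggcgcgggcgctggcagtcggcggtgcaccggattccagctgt

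The E2F letters searched, on both strands, were TTTCCCGC, TTTCGCGC, TTTGCCGC and TTTGGCGC. At least 1 match was found for 13 of the 32 members (40.6%), against 2.6% of 27025 genes with a window. In Mcm5 and Mcm6 a TTTCGCGC and a TTTGGCGC on opposite strands share bases, which gives the longer run of capitals, and Mcm6 has a further TTTGGCGC whose first base lies 47 bases before the start. The match of Orc1 begins 27 bases before the start, and that of Pole2 begins 10 bases after it. A CCAAT box, searched as CCAAT on both strands, was in the windows of 21 of 32 members (65.6%) and of 41.1% of all genes, and overlapped an E2F match in 1 window. Members with an E2F match had a median log2 difference of 0.14 over 3 libraries, with a range from 0.03 to 0.61. Those without one had a median of 0.22, with a range from -0.0039 to 0.42. These ranges overlap, and a match to letters is not a test of factor binding.

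Among the origin recognition and licensing genes all 5 lay above both controls in anti-CD71 replicate 2, as did 39.5% of all genes, and none passed. Orc1, the largest subunit of the complex that marks origins, stood at 12.05 TPM in anti-CD71 replicate 2, against 8.67 and 6.54 TPM in controls (log2 difference 0.61, SE 0.18, limma adjusted p = 0.131). It has the lowest mean level of the 40, and its controls differ more than those of most members. A minor transcript of Orc1, with 10.16% of its TPM, is listed for all 4 libraries and stood at 1.35 and 1.25 TPM in anti-CD71 tumours, against 0.96 and 0.56 TPM in controls. Orc6, the smallest subunit, stood at 68.79 TPM in anti-CD71 replicate 2, against 53.91 and 48.7 TPM in controls (log2 difference 0.42, SE 0.10, limma adjusted p = 0.0916). As with Orc1, its level in anti-CD71 replicate 2 stood apart from both controls. Orc2 stood at 38.33 TPM in anti-CD71 replicate 2, against 35.35 and 31.48 TPM in controls. Cdc6, the loader ATPase, stood at 17.92 TPM in anti-CD71 replicate 2, against 16.87 and 12.16 TPM in controls, so the log2 difference was 0.08 against control replicate 1 alone and 0.52 against control replicate 2 alone. The transcript of Cdc6 listed for all 4 libraries, with 14.59% of its TPM, overlapped between groups at 1.62 and 2.41 TPM in anti-CD71 tumours, against 3.2 and 1.24 TPM in controls.

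The 6 subunits of the MCM helicase were each above both controls, as were 39.5% of all genes. Their log2 differences kept within a narrow range, from 0.13 for Mcm3 to 0.285 for Mcm5. Mcm5 stood at 121.96 TPM in anti-CD71 replicate 2, against 100.19 and 99.65 TPM in controls, which lie close together (SE 0.07, limma adjusted p = 0.108). Mcm6, the most abundant subunit transcript, stood at 194.97 TPM in anti-CD71 replicate 2, against 171.28 and 167.58 TPM in controls. In both genes the controls lay together and anti-CD71 replicate 2 apart from them. Mcm7 stood at 143.03 TPM in anti-CD71 replicate 2, against 137.06 and 118.83 TPM in controls. Mcm4 stood at 82.76 TPM in anti-CD71 replicate 2, against 72.94 and 64.81 TPM in controls. Mcm3 stood at 102.31 TPM in anti-CD71 replicate 2, against 96.45 and 90.1 TPM in controls. For Mcm2, Mcm3 and Mcm7, anti-CD71 replicate 2 was closer to control replicate 1 than the controls were to each other.

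The genes that turn the helicase on were less uniform, with a median log2 difference of 0.06. Of these 6, 4 lay above both controls, where 39.5% of all genes did, so that count says little. Gins1, a GINS subunit, stood at 42.51 TPM in anti-CD71 replicate 2, against 34.08 and 28.83 TPM in controls (log2 difference 0.43, SE 0.12, limma adjusted p = 0.131). Its partner Gins4 stood at 45.99 TPM in anti-CD71 replicate 2, against 47.38 and 46.53 TPM in controls, and its difference of -0.03 became 0.01 with median scaling. Gins2 stood at 53.1 TPM in anti-CD71 replicate 2, against 50.59 and 46.32 TPM in controls, and Gins3 at 11.91 TPM, between controls of 11.11 and 11.97 TPM. The 4 subunits act as 1 complex, yet their transcripts ran from Gins4, below both controls, to Gins1, well above both. Mcm10, which helps to start the fork, stood at 20.32 TPM in anti-CD71 replicate 2, against 19.14 and 19.87 TPM in controls. Cdc45 stood at 46.29 TPM in anti-CD71 replicate 2, against 45.99 and 42.84 TPM in controls. Its 2 RefSeq copies at another locus repeat the values of the first, and without them it stood at 24.62 TPM, against 23.49 and 23.84 TPM, with nearly the same difference (0.05 against 0.06).

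Of the polymerase alpha and primase genes, Prim1 lay furthest from the controls. Prim1, the catalytic primase subunit, stood at 71.31 TPM in anti-CD71 replicate 2, against 60.35 and 58.15 TPM in controls (log2 difference 0.26, SE 0.08, limma adjusted p = 0.144). Pola2, which encodes the accessory subunit of polymerase alpha, stood at 37.89 TPM in anti-CD71 replicate 2, between controls of 38.8 and 37.17 TPM. Its difference of -0.0032 turned to 0.04 with median scaling. With Pola1 and Prim2 near 0 as well, Prim1 was the one gene of the 4 with a difference above its SE.

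Pcna, the sliding clamp, was the most abundant of the 40 in each complete library and lies on chromosome 2 from 132249286 to 132253180. It stood at 547.06 TPM in anti-CD71 replicate 2, against 469.87 and 405.35 TPM in controls (log2 difference 0.33, SE 0.10, limma adjusted p = 0.145). The controls were themselves well apart, and the log2 difference was 0.22 against control replicate 1 alone and 0.43 against control replicate 2 alone. Of the 8 clamp and clamp loader genes, 7 lay above both controls, where 39.5% of all genes did. Their median log2 difference was 0.23, with a range from 0.00 for Rfc1 to Dscc1. Chtf18, the large subunit of the loader that contains Dscc1, stood at 20.64 TPM in anti-CD71 replicate 2, against 17.78 and 17.03 TPM in controls (log2 difference 0.23, SE 0.10, limma adjusted p = 0.223). Rfc4 stood at 51.55 TPM in anti-CD71 replicate 2, against 44.83 and 43.32 TPM in controls, and Rfc2 at 83.71 TPM, against 78.97 and 81.23 TPM.

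Pole2, the second subunit of polymerase epsilon, lies on chromosome 12 from 69201773 to 69228205. It stood at 29.56 TPM in anti-CD71 replicate 2, against 21.99 and 21.1 TPM in controls (log2 difference 0.44, SE 0.09, limma adjusted p = 0.0785). Its value in that library lies far from 2 close controls. Pole, the catalytic subunit of the same enzyme, lay below both controls there and between them in anti-CD71 replicate 1. The main Pole2 transcript stood at 23.67 TPM in anti-CD71 replicate 2, against 19.94 and 18.44 TPM in controls. Part of the gap lay in minor transcripts, 1 of them at 2.47 TPM against 0 TPM in both controls. The Pole2 transcript listed for all 4 libraries, with 3.66% of its TPM, stood at 0.56 and 0.65 TPM in anti-CD71 tumours, against 0.71 and 1.3 TPM in controls.

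Fen1, which cuts the flaps of Okazaki fragments, stood at 45.46 TPM in anti-CD71 replicate 2, between controls of 48.2 and 43.11 TPM. Its log2 difference was -0.0039 and turned to 0.04 with median scaling. Lig1, the ligase that joins the fragments, stood at 96.03 TPM in anti-CD71 replicate 2, against 91.07 and 83.83 TPM in controls. Both genes for subunits of RPA, the protein that covers single-stranded DNA, lay above both controls, as did 39.5% of all genes. Rpa1 stood at 107.42 TPM in anti-CD71 replicate 2, against 94.72 and 92.62 TPM in controls, and Rpa2 at 48.24 TPM, against 42.84 and 38.79 TPM. Neither passed (limma adjusted p = 0.202 for Rpa1 and 0.226 for Rpa2).

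All 4 deoxynucleotide genes lay above both controls in anti-CD71 replicate 2, where 39.5% of all genes did, with a median log2 difference of 0.21. Tk1, the thymidine salvage kinase, stood at 152.97 TPM in anti-CD71 replicate 2, against 134.42 and 133.57 TPM in controls (log2 difference 0.19, SE 0.07, limma adjusted p = 0.193). Tyms, which makes thymidylate, stood at 26.49 TPM in anti-CD71 replicate 2, against 23.54 and 20.51 TPM in controls (log2 difference 0.26, SE 0.12, limma adjusted p = 0.25). Rrm1, the large reductase subunit, stood at 98.63 TPM in anti-CD71 replicate 2, against 95.12 and 85.01 TPM in controls. Rrm1 and Rrm2 both had control replicate 1 closer to anti-CD71 replicate 2 than to control replicate 2, whereas the Tk1 controls lay together. In anti-CD71 replicate 1 Rrm2 lay between the controls, as given above, and the other deoxynucleotide genes could not be compared there.

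**Figure D3:**
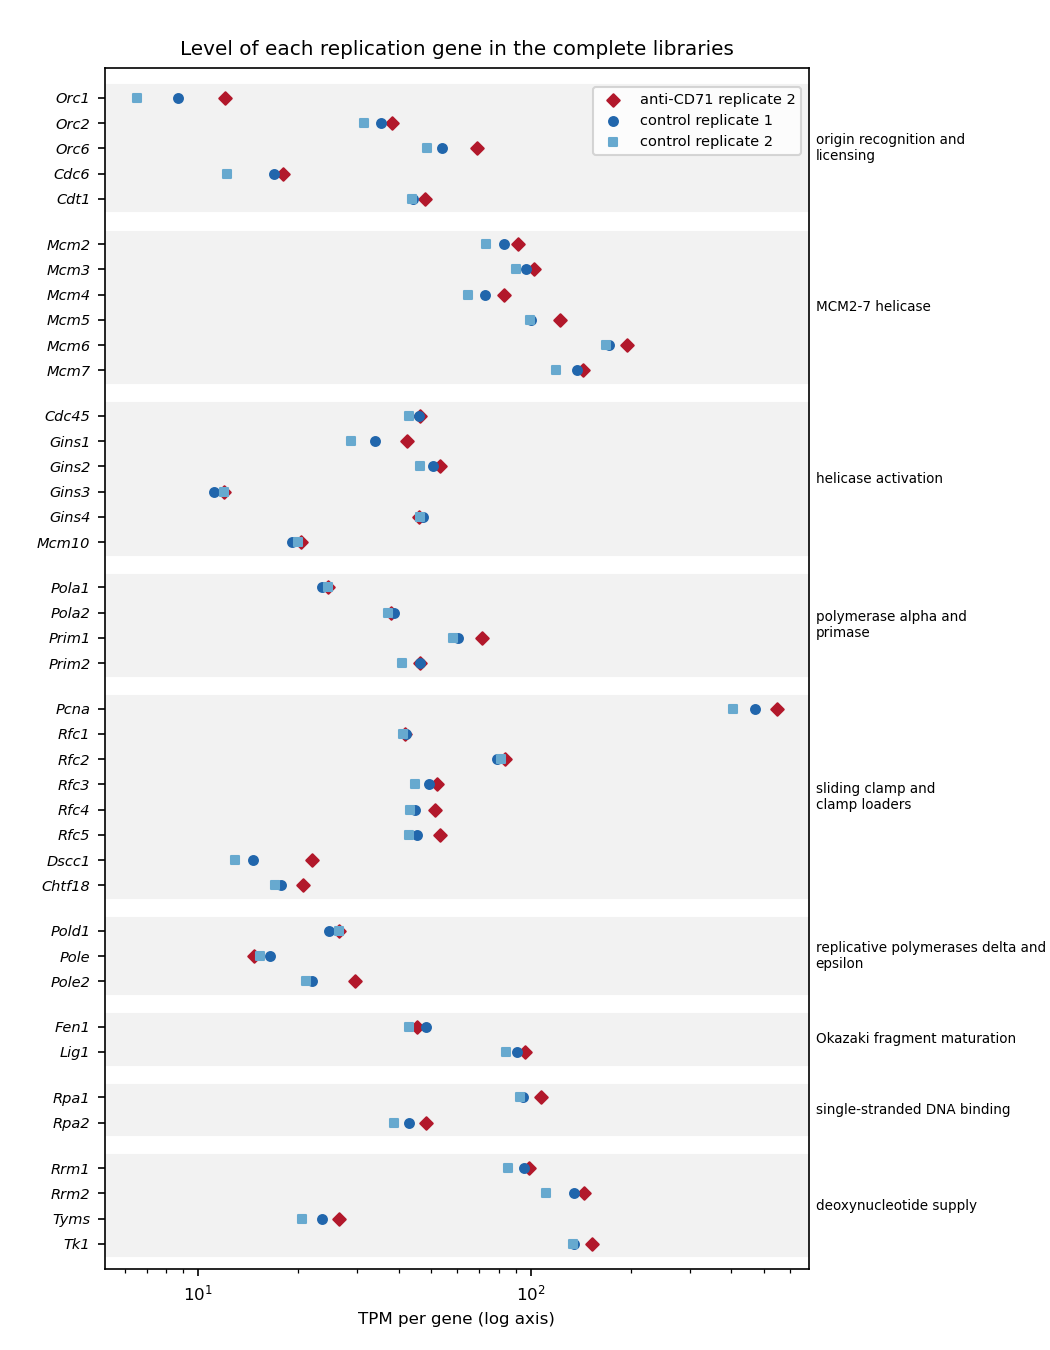
TPM of the 40 replication genes on a log axis, by role, in anti-CD71 replicate 2 (diamonds) and in control replicates 1 (circles) and 2 (squares). Pcna is the most abundant, at 547.06 TPM against 469.87 and 405.35 TPM, Orc1 has the lowest mean, at 12.05 TPM against 8.67 and 6.54 TPM, and the diamond is the rightmost point in 33 of 40 rows.

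**Figure D4:**
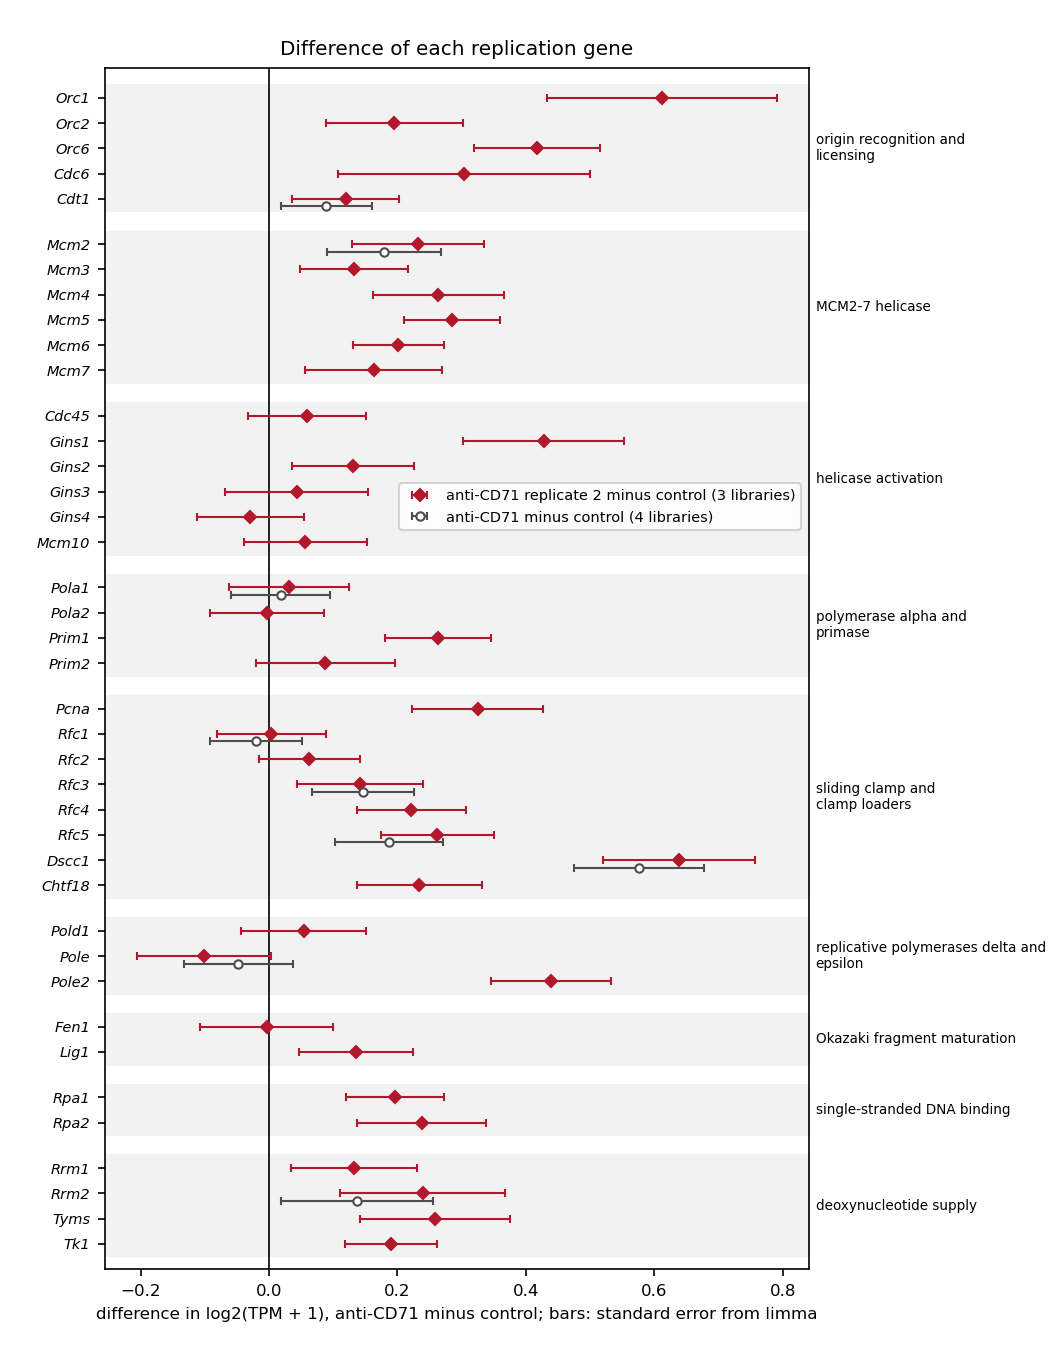
Difference in log2(TPM + 1), anti-CD71 minus control, of the 40 replication genes by role, with standard errors from limma, for anti-CD71 replicate 2 against both controls (diamonds) and, for 9 genes, for all 4 libraries (open circles). Dscc1 and Orc1 have the highest values over 3 libraries (0.64 and 0.61) and Pole the lowest (-0.10).

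By abundance, the mean over complete libraries put Pcna first (474.09 TPM), then Mcm6 (177.94), Tk1 (140.32), Mcm7 (132.97) and Rrm2 (130.18). Mcm7 and Rrm2 stood at 143.03 and 144.65 TPM in anti-CD71 replicate 2, and at 118.83 and 111.22 TPM in control replicate 2, so the order of these neighbours is not beyond their spread. At the low end stood Cdc6 (15.65 TPM), Pole (15.45), Gins3 (11.66) and Orc1 (9.09).

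Other genes of the pathway, from 9 lists chosen with earlier results of these data known, held 125 genes besides the members, all tested over 3 libraries, of which limma called 0 higher and 0 lower (lowest adjusted p = 0.0529, for Ctps, a CTP synthase). By limma 45 of them (36.0%) had an unadjusted p under 0.05, 39 with a positive difference, against 24.7% of all genes. In anti-CD71 replicate 2, 88 of them (70.4%) lay above both controls and 23 (18.4%) below, where the shares of all genes were 39.5% and 42.5%. Their median log2 difference was 0.18, against -0.01 over all genes. Over 4 libraries 16 could be tested and limma called 0 (lowest adjusted p = 0.103, with 2 at an unadjusted p under 0.05, as had 26.7% of all genes), with a median of 0.03. That lowest value belongs to Ppat, of the purine and pyrimidine synthesis list. Ppat stood at 22.09 and 24.17 TPM in anti-CD71 tumours, against 18.45 and 18.2 TPM in controls. These groups did not overlap (log2 difference 0.32, SE 0.09). Ctps stood at 107.12 TPM in anti-CD71 replicate 2, against 78.12 and 74.91 TPM in controls (log2 difference 0.48). The E2F and G1/S control list had a median of 0.07 (over 20 genes, with 11 above both controls and 6 below), and the S-phase checkpoint list had 8 of 8 above both controls (median 0.16), to be read against the 39.5% of all genes.

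Regulators and a marker of cycling did not pass either. E2f1, a transcription factor for replication genes, stood at 37.89 TPM in anti-CD71 replicate 2, against 36.69 and 33.68 TPM in controls. Mki67, a marker of cycling cells, stood at 92.16 TPM in anti-CD71 replicate 2, below controls of 101.16 and 96.88 TPM (log2 difference -0.10, SE 0.08). Cdkn1a, the p53 target that restrains entry into S phase, stood at 175.61 TPM in anti-CD71 replicate 2, between controls of 191.65 and 149.94 TPM. The proliferation list, which includes Mki67, had 6 of 10 genes above both controls and 2 below, where the shares of all genes were 39.5% and 42.5%.

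Host cell markers differed between these same libraries. All 5 pan-leukocyte genes lay below both controls, 4 of them called lower by limma, and their summed level was 320.76 TPM in anti-CD71 replicate 2, against 548.4 and 641.71 TPM in controls. Macrophage markers summed to 1996.63 TPM in anti-CD71 replicate 2, against 3825.89 and 4630.13 TPM in controls, with 11 of 11 below both controls and 8 called lower. T and NK cell markers summed to 57.48 TPM in anti-CD71 replicate 2, against 210.89 and 199.72 TPM in controls, with 11 of 11 tested below both and 5 called lower. Of all genes, 42.5% lay below both controls over 3 libraries, and the share called lower there is given above with the members. These 3-library calls rest on anti-CD71 replicate 2. Over 4 libraries limma called 0 of 3 tested T and NK cell markers, 2 of 3 macrophage markers and 1 of 1 pan-leukocyte marker, all lower. In that comparison 3.45% of all genes were called lower. Gzmb, a granzyme of killer lymphocytes, stood at 79.54 and 27.62 TPM in anti-CD71 tumours, against 100.74 and 84.83 TPM in controls (4 libraries, limma adjusted p = 0.24), so replicate 1 lay much nearer to the controls than replicate 2. Ncr1 (limma adjusted p = 0.0553) and Cd3g (limma adjusted p = 0.065) did not pass over 4 libraries either. Between the controls, the host lists did not all go the same way. Control replicate 2 had the higher sum of pan-leukocyte and macrophage markers and the lower sum of T and NK cell markers. Its sum of the replication genes was also the lower. Neutrophil markers summed to 569.66 TPM in anti-CD71 replicate 2, against 68.99 and 87.62 TPM in controls, with 2 of 4 tested called higher. S100a8 (265.49 TPM) and S100a9 (212.99 TPM) carried most of that sum. Without them it was 91.18 TPM in anti-CD71 replicate 2, against 60.1 and 84.33 TPM in controls. Most of this remainder was Mmp9, with 59.62 TPM in anti-CD71 replicate 2, between controls of 51.94 and 76.33 TPM. Ltf, near 0, also lay between the controls, while the other genes of the remainder lay above both. Retnlg was the highest of them, with 17.34 TPM in anti-CD71 replicate 2 and 0 in both controls. The S100a9 transcripts that could be compared in replicate 1 (85.67% of its TPM) gave 142.39 TPM there and 183.5 TPM in replicate 2. The controls had 3.67 and 0 TPM. Transcripts of Tfrc, which encodes CD71, stood at 29 TPM in anti-CD71 replicate 2, against 44.11 and 36.16 TPM in controls (not called). The erythroid marker list, which includes Tfrc, summed to 1036.15 TPM in anti-CD71 replicate 2, against 3419.39 and 3784.91 TPM in controls. All 6 of its tested genes lay below both controls. Whether the share of host cells has a part in the members' differences was not tested.

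Markers of epidermis and hair summed to 242.4 TPM in anti-CD71 replicate 2, against 0.2 and 0.11 TPM in controls. Krt25 and Dsg1a, the listed markers of that set with all their TPM in shared transcripts, were at 0 in anti-CD71 replicate 1. The part of skin RNA in the members' values was not tested. Of epithelial markers, the simple keratins were abundant. Krt8 stood at 1255.9 TPM in anti-CD71 replicate 2, against 1132.27 and 1202.77 TPM in controls (log2 difference 0.11). Krt18 stood at 893.37 TPM, against 657.36 and 680.49 TPM (log2 difference 0.42). Of 5 tested squamous carcinoma markers, 4 lay above both controls and 1 below, where the shares of all genes were 39.5% and 42.5%. The basal squamous keratins were near 0 in controls, with Krt5 at 31.4 TPM in anti-CD71 replicate 2 against 0 TPM in both controls, and Krt14 at 36.37 TPM against 0.09 and 0.1 TPM. Trp63, a squamous lineage factor, stood at 1.35 TPM in anti-CD71 replicate 2, against 0.18 and 0.32 TPM in controls. Krt5, Krt14 and Trp63 thus do not bear out the squamous label in the control tumours. Their higher values in anti-CD71 replicate 2 are from the library that held the epidermis and hair markers, so they do not settle the label there either.

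**Figure D5:**
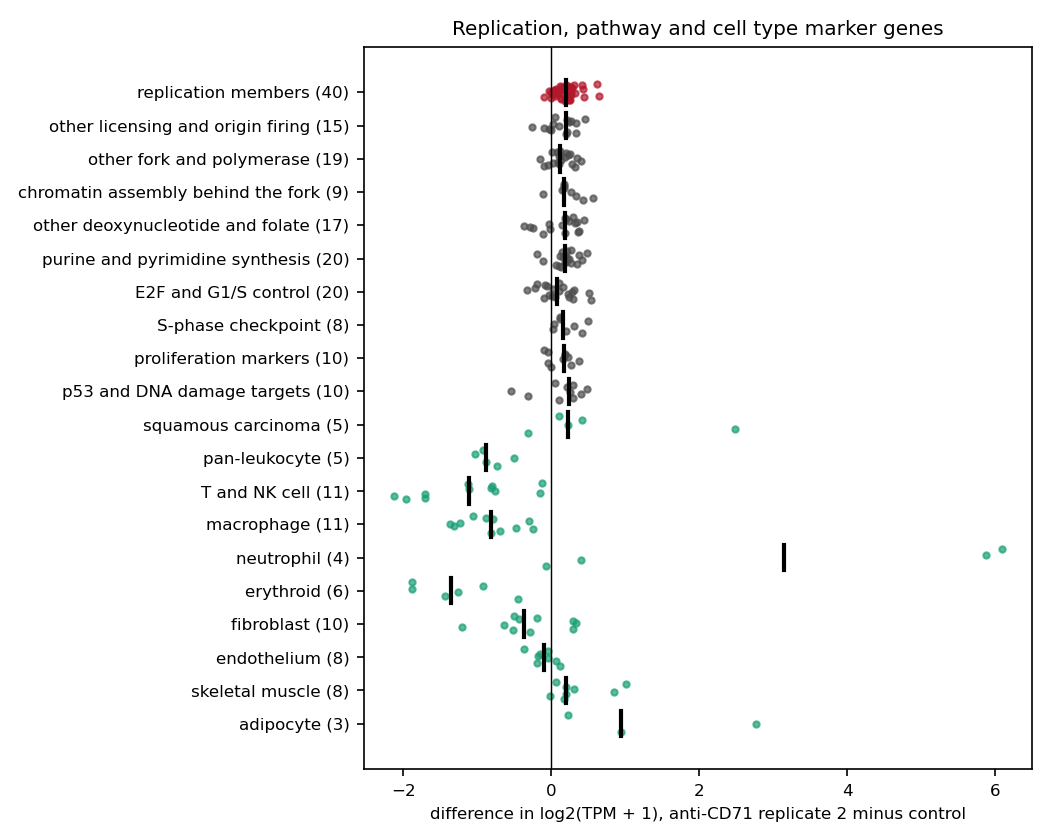
Difference in log2(TPM + 1), anti-CD71 replicate 2 minus control, of each tested gene in the replication set (top), in 9 further pathway lists (grey) and in cell type marker lists (green), with the number tested in brackets and a bar at the median. The replication set sits at a median of 0.19, while pan-leukocyte and macrophage markers lie below 0 in every gene.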

How the data were processed

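RNA sequencing was done on 2 anti-CD71 and 2 control SCC7 tumour libraries. Per the labels' protocols, BGI extracted RNA with TRIZOL and made the libraries. The authors deposited TPM for each RefSeq transcript, rounded to hundredths; the submitters' processing notes name GRCm38.p6. The unit was read from the values: complete files sum to 1000000.86, 999999.29 and 999998.88, and the smallest values fall with transcript length. Neither aligner nor abundance program is given in the sources used here. Depth cannot be had from TPM, and intervals for counting error are therefore left out.

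The file of anti-CD71 replicate 1 ends inside a line, and that line was dropped. RefSeq names matched 58425 of 59881 transcripts (1744 of them copies at another locus, added to their gene), and TPM were summed per gene. Log2(TPM + 1) values were tested with limma 3.58.1 (R 4.3.3), allowing the prior variance to follow intensity, on genes with at least 1 TPM in 2 libraries, and Benjamini-Hochberg adjustment over all genes tested. The 4-library comparison used genes with 90% of their TPM in shared transcripts. The fit was also run on simulated data. Every simulated library had the same spread, taken from the controls, so that run does not bear on the unequal spreads given above. Fold changes on this scale understate those of low genes. Named were all 40 members, the called pathway genes (none) and Mki67, Rrm2b, Dna2, E2f1 and Cdkn1a. Ctps and Ppat were named after their values were seen. Members and lists were chosen with earlier results of these data known.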

Additional observations from a re-analysis of the deposited data

How the results depend on the processing

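The count of members called higher over 4 libraries, 1 as reported, was 0 with no filter on low values, with a filter of 1 TPM in at least 1 library, with no trend in the variance prior, with a replicate block, with a limit of 50% of TPM in shared transcripts and with any listed transcript. In each of these settings limma still gave 1 member an unadjusted p under 0.05. It ranged from 0 to 1 when single libraries were left out, where the lone library of a group is assumed to vary like the other group. The adjusted p of Dscc1 by limma ran from 0.0326 with median scaling to 0.344 without control replicate 2, at log2 changes from 0.49 to 0.66. No member was called lower under any of these settings, and over 3 libraries none was called in either direction.

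The median log2 change over 4 libraries, 0.14 as reported, was 0.18 with median scaling and ranged from 0.0588 to 0.21 without single libraries. Over 3 libraries it ranged from 0.11 to 0.21 without single controls, where 1 control is left and no test was run. The count of members above both controls, examined after seeing the data, was 36 of 40 over 3 libraries with median scaling (46.5% of all genes). With median scaling the sign turned for Rfc1 over 4 libraries (0.0227), Gins4 (0.0125), Pola2 (0.0385) and Fen1 (0.0379). Without single libraries the sign turned for Rfc1 (-0.0445 to 0.0037) and Pola1 (-0.01 to 0.0466) over 4 libraries. Over 3 libraries it turned for Gins3 (-0.0067 to 0.0923), Pola2 (-0.0334 to 0.027), Fen1 (-0.0827 to 0.0749), Prim2 (-0.0021 to 0.1774) and Rfc1 (-0.0111 to 0.0186). Of 437 member values under alternatives, 357 came with a test, of which 342 kept direction and side of the threshold. Nearly all of these were members with no call to lose, so the figure says little about how stable the call is. The call was lost in 9, all of them for Dscc1, the one member called, and the sign turned in 6. The remaining 80 of the 437, each from 3 libraries less a control, had no test, and 75 of them kept direction. Counts over all genes moved more, from 1 higher and 0 lower (no filter) to 36 higher and 61 lower (without anti-CD71 replicate 1) over 4 libraries. Over 3 libraries, 57 higher and 286 lower became 0 and 0 with no filter, 60 and 12 with 1 TPM in at least 1 library, and 13 and 22 with no trend.

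The labels number the replicates of both groups alike, but the pairing correlation was -0.01 over 1564 genes and nothing ties the numbers, so the replicate block (0 members called) was not used. No paired analysis was possible over 3 libraries because no residual degrees of freedom are left. The partial library limits the 4-library test to 9 members, and unknown depth leaves the counting error of low members such as Orc1 unmeasured.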
